A study of Mus musculus with 5 samples.

Results

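Neurons set how fast and how regularly they fire through voltage-gated potassium channels that open late in the action potential. Channels of the Kv2 family are slow delayed rectifiers, which cluster on the cell body and proximal dendrites of cortical pyramidal neurons. Channels of the Kv3 family open at strongly depolarized potentials and close quickly, and they are best known for the narrow spikes of fast-spiking interneurons. Subunits of the Kv5, Kv6, Kv8, and Kv9 families are called silent, because they form no channel of their own and change the gating of Kv2 channels when they assemble with them. The genes followed here were the Kv2 gene *Kcnb2*, the Kv3 genes *Kcnc1*, *Kcnc2*, and *Kcnc4*, and the silent subunit genes *Kcnf1* (Kv5), *Kcnv1* (Kv8), and *Kcns1* and *Kcns2* (Kv9). They were chosen by name, and all 8 of the 8 genes had a probe set that an annotation of the array assigns to that gene alone, among 19938 genes named in this way.

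Expression was measured on 5 arrays of neurons retrogradely labeled in the primary somatosensory area (S1) of ICR mice at postnatal day 24, with 1 array each for association L6b, association L5, association L2/3, callosal L5, and callosal L2/3. Association neurons were labeled from the ipsilateral primary motor area (M1), and callosal neurons from the contralateral S1 (cS1), with Green RetroBeads injected 3 days before the tissue was taken. All animals carried a tdTomato plasmid introduced into future L2/3 neurons by *in utero* electroporation, which guided the injections. About 1000 cells per group were collected by laser microdissection, and the sources used here do not give the number of animals behind each array. Each value is the log2 signal of a probe set minus the median of its array, and it is called the signal below. A gene was called higher or lower where the signals differed by at least 2-fold (1 log2), which is a rule of size. With 1 array per group there was no replicate check and no test, so every value describes these arrays. Signals of different probe sets do not give the relative amounts of different transcripts, and each gene was compared with itself across arrays. In pooled cells, a smaller share of cells that express a gene and less RNA per cell cannot be told apart.

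The layers matched their labels by marker genes in L6b and L2/3, and less clearly in L5. All 6 L6b genes were highest in association L6b, with *Cplx3* at 5.22 there and between -0.37 and 0.39 in the other arrays. Of 5 L2/3 genes, 4 were highest in association L2/3 and 1 in callosal L2/3. Of 5 L5 genes, 1 was highest in association L5 and 1 in callosal L5, while 2 were highest in association L6b and 1 in association L2/3. Genes of GABAergic neurons, which the tracing was not aimed at, were also read in these arrays, and 7 to 8 of the 8 named genes reached the array median in each array. Oligodendrocyte genes differed between arrays, with a summed linear signal of 41.8 in L6b, 39.8 in L5, and 8.66 in L2/3 of association neurons, and of 18.8 in L5 and 9.44 in L2/3 of callosal neurons, in units of the array median. The sums were 27.2 to 34.7 for astrocyte genes, 7.18 to 7.89 for microglia genes, and 4.48 to 6.33 for endothelial genes. Of 4 L6a genes, 3 were highest in association L6b, with *Tle4* at 2.91 there and between -0.28 and 0.07 elsewhere, while *Tbr1* was lowest there, at 3.60 against 4.12 to 4.36. The arrays correlated with each other at Pearson's r of 0.918 to 0.938 over all probe sets, which share probes and processing.

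The 8 genes fell into 4 that varied over the arrays and 4 that hardly did. The highest and the lowest array differed by 2.03 log2 for *Kcnc2*, 1.67 for *Kcnb2*, 1.59 for *Kcnv1*, and 1.44 for *Kcns2*. The same range was 0.28 for *Kcnf1*, 0.20 for *Kcnc4*, 0.16 for *Kcns1*, and 0.09 for *Kcnc1*. Over the 12632 genes with a signal of at least 0 in 1 or more arrays, the median range was 0.53 log2, and 29.5% of genes had a range of at least 2-fold. A range as large as that of *Kcnc2* was found in 9.44% of these genes, and one as large as that of *Kcns2* in 18.0%. All 8 members passed this filter. *Kcns2* passed through only 2 arrays, association L2/3 and, at 0.01, callosal L5.

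**Figure D1:**
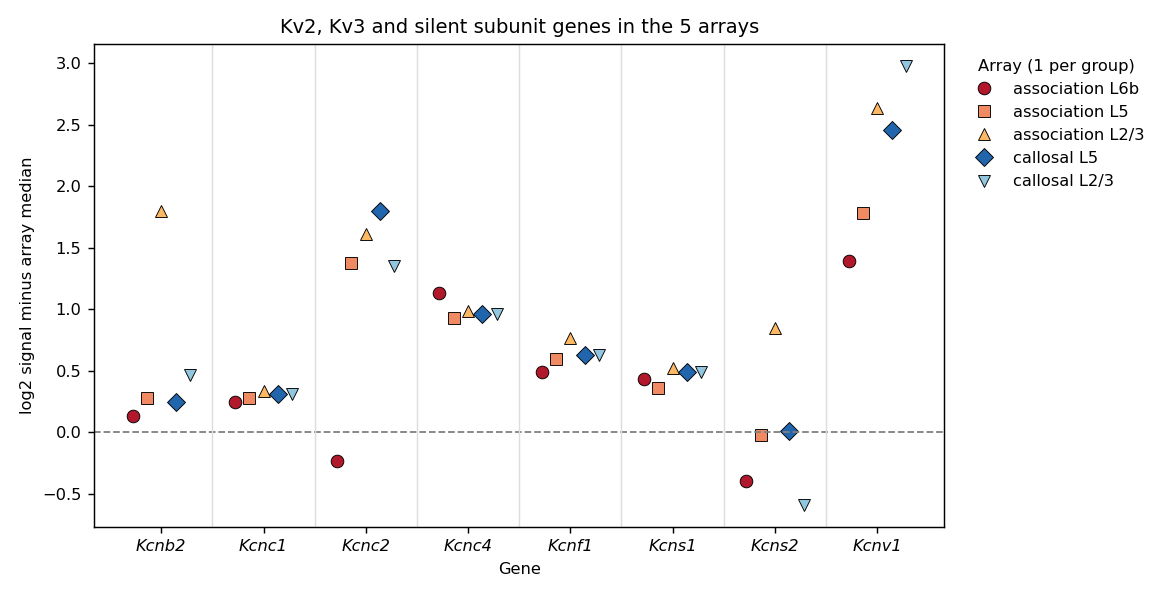
Log2 signal minus the array median (vertical axis) for the 8 genes (horizontal axis), with a point for each of the 5 arrays. *Kcnc2* lies at -0.23 in association L6b against 1.35 to 1.80 elsewhere, *Kcnb2* and *Kcns2* stand out in association L2/3, and the points of *Kcnc1*, *Kcns1*, *Kcnc4*, and *Kcnf1* lie close together.

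**Figure D2:**
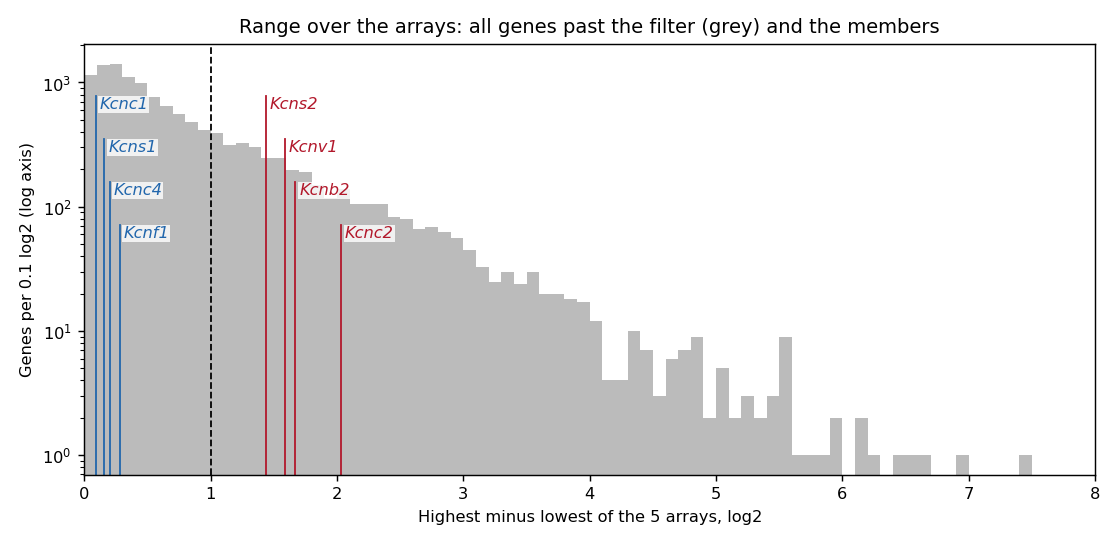
Number of genes per 0.1 log2 (vertical axis, log scale) by the difference between the highest and the lowest array (horizontal axis, log2) for the 12632 genes past the filter (grey), with the members as vertical lines. The dashed line marks a 2-fold range; *Kcns2*, *Kcnv1*, *Kcnb2*, and *Kcnc2* (red) lie beyond it, from 1.44 to 2.03, and the other members (blue) at 0.09 to 0.28.

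Among the pore-forming Kv3 genes, *Kcnc2* was the only one with a range past 2-fold. *Kcnc2* encodes Kv3.2, a fast delayed rectifier expressed by several classes of cortical interneurons. Its signal was -0.23 in L6b, 1.38 in L5, and 1.61 in L2/3 of association neurons, and 1.80 in L5 and 1.35 in L2/3 of callosal neurons. L6b was the single array in which it lay below the array median, and the other 4 arrays lay within 0.45 log2 of each other. It was 3.40-fold lower in association L6b than the mean of the other 4 arrays (-1.77 log2), and the nearest array, callosal L2/3, was 1.58 log2 above L6b. Of the genes past the filter, 2.82% were at least 2-fold lower in association L6b than in each other array, and *Kcnc2* was 1 of these.

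The signal of *Kcnc2* was lowest in the same array as those of several interneuron genes. The summed linear signal of 8 GABAergic neuron genes, in units of the array median, was 20.8 in association L6b against 54.0 to 78.2 elsewhere. *Pvalb*, the calcium-binding protein gene of fast-spiking interneurons, was at -1.38 in L6b, 4.41 in L5, and 4.57 in L2/3 of association neurons, and 4.52 in L5 and 2.26 in L2/3 of callosal neurons. Of the 8 GABAergic genes, 4 were lowest in association L6b, namely *Pvalb*, *Gad1*, *Gad2*, and *Sst*. *Slc32a1*, the vesicular GABA transporter gene, was at 1.93 in association L6b against 1.83 to 2.74 elsewhere. Of 5 genes of parvalbumin interneurons, 3 were lowest in association L6b: *Pvalb*, *Tac1*, and, by a small gap, *Syt2* (0.33 against 0.36 to 0.44). Relative to the mean of the other 4 arrays, L6b differed by -5.32 log2 for *Pvalb* and -2.99 for *Tac1*. The difference was only -0.07 for *Syt2*, -0.10 for *Lhx6*, and -0.14 for *Erbb4*. *Pvalb* and *Lhx6* are on both gene lists, so the lists are not separate evidence. For the 5 parvalbumin interneuron genes, the summed signal was 4.58 in association L6b against 10.0 to 37.5 elsewhere. In callosal L2/3 this sum was 10.0 and *Kcnc2* was at 1.35, close to the 1.38 of association L5, where the sum was 27.3. The part of these genes in the difference of *Kcnc2* was not tested.

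The remaining Kv3 genes gave nearly the same signal in every array. *Kcnc1* encodes Kv3.1, the other main Kv3 subunit of fast-spiking neurons, and *Kcnc4* encodes Kv3.4, a fast-inactivating subunit. The deposited log2 value of *Kcnc1*, before the medians were subtracted, was 6.05 in all 5 arrays. An identical deposited value in all 5 arrays was found in 2.60% of genes past the filter. As signals, *Kcnc1* lay at 0.25 to 0.34, close to the array median, and 26.6% of genes past the filter had a lower mean. Whether this probe set follows the amount of its transcript was not tested, so the equal values do not establish even expression. *Kcnc4* had a deposited value of 6.93 in association L6b and of 6.70 in each of the other 4 arrays, which as signals were 1.13 in association L6b and 0.93 to 0.99 in the others. It was highest in association L6b under each of the 4 scalings tried, by 0.14 log2 over association L2/3 with the medians subtracted.

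*Kcnb2*, which encodes Kv2.2, stood out in association L2/3. Its signal was 0.13 in L6b, 0.28 in L5, and 1.80 in L2/3 of association neurons, and 0.25 in L5 and 0.47 in L2/3 of callosal neurons. The 4 lower arrays lay within 0.34 log2 of each other, and the highest of them, callosal L2/3, was 1.33 below association L2/3. At least 2-fold higher in association L2/3 than in each other array were 2.34% of the genes past the filter, and *Kcnb2* was the only member among them. Such genes were mostly higher in this array, with 295 higher and 20 lower than in each other array. *Amigo1* encodes a cell adhesion protein that binds Kv2 channels, and it was also highest in association L2/3, at 2.10 against 1.61 to 1.67 in the other arrays. That gap of 0.43 log2 is below 2-fold.

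*Kcns2*, the gene of the silent subunit Kv9.2, was highest in the same array at a dimmer signal. Its signal was -0.40 in L6b, -0.02 in L5, and 0.85 in L2/3 of association neurons, and 0.01 in L5 and -0.59 in L2/3 of callosal neurons. It reached the array median clearly in association L2/3 alone, 0.84 log2 above callosal L5. *Kcns1*, the gene of Kv9.1, had a deposited value of 6.13 in association L5 and of 6.23 in the other 4 arrays. Its signals were 0.43 in association L6b, 0.36 in association L5, and 0.49 to 0.52 in the remaining arrays. *Kcnf1*, which encodes Kv5.1, was at 0.49 in L6b, 0.60 in L5, and 0.77 in L2/3 of association neurons, and at 0.63 in both callosal arrays.

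*Kcnv1*, which encodes the silent subunit Kv8.1, was lowest in association L6b like *Kcnc2*, but none of its arrays was 2-fold apart from each other array. Its signal was 1.39 in L6b, 1.78 in L5, and 2.64 in L2/3 of association neurons, and 2.46 in L5 and 2.98 in L2/3 of callosal neurons. In each layer that had both projections it was lower in association neurons than in callosal neurons, by 0.68 log2 (L5) and 0.34 log2 (L2/3), and in each projection it was lower in L5 than in L2/3. Each of these gaps was below 2-fold. In association L6b it was 2.11-fold lower than the mean of the other arrays (-1.08 log2), and the nearest array, association L5, was 0.39 above L6b. This call depended on the processing: the difference was -0.97 with the 75th percentile subtracted, -0.91 under quantile normalization, and -0.90 without callosal L2/3. Of 4 projection neuron genes, 2 were lowest in association L6b as well, with *Camk2a*, a kinase gene of excitatory neurons, at 2.41 there and 4.41 to 5.75 in the other arrays. *Slc17a7*, the vesicular glutamate transporter gene, was at 3.98 in association L6b and 3.84 to 4.47 in the others. *Neurod6* was at 3.08 in association L6b and 1.29 to 3.42 in the others, with its lowest signal in association L2/3. The summed signal of the 4 genes was 33.1 in association L6b against 56.4 to 85.2 elsewhere. *Camk2a* was the largest of the 4 signals in each array other than association L6b, so it weighs most in those sums. The part of these genes in the difference of *Kcnv1* was not tested.

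**Figure D3:**
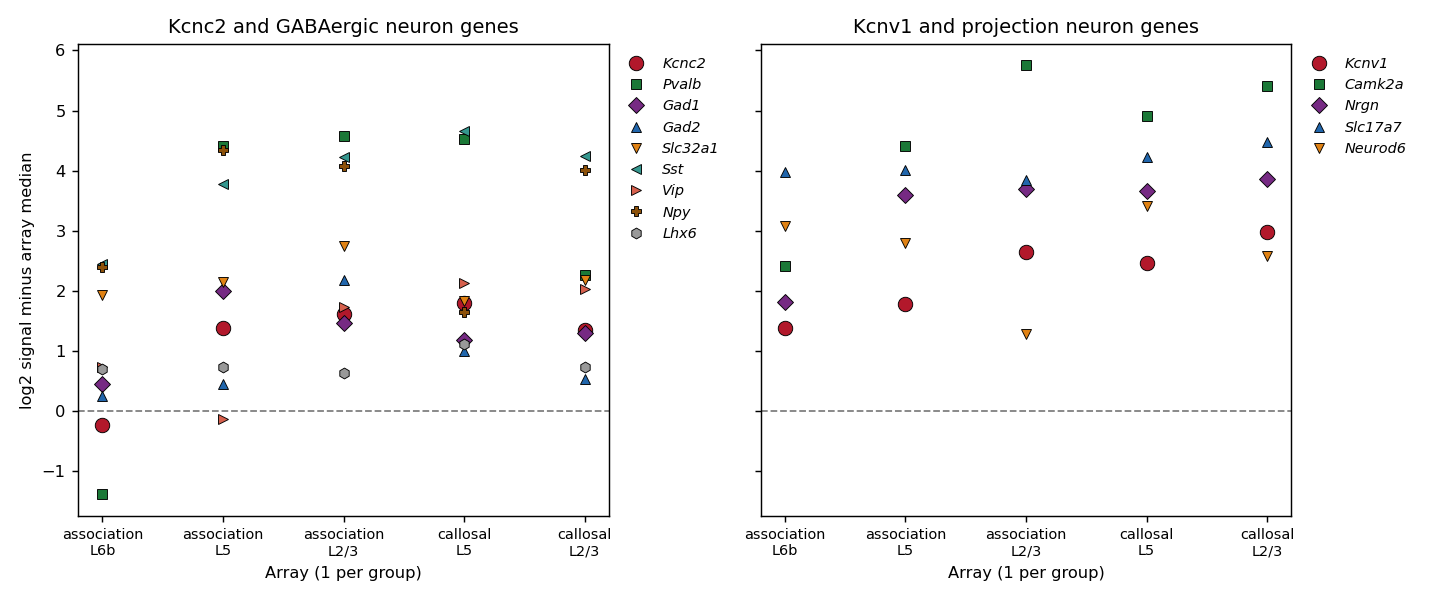
Log2 signal minus the array median (vertical axis) by array (horizontal axis) of *Kcnc2* with the 8 named GABAergic neuron genes (left) and of *Kcnv1* with the 4 named projection neuron genes (right), with a point for each array. *Kcnc2* and *Pvalb* lie below the array median in association L6b, at -0.23 and -1.38, while *Kcnv1* is lowest in association L6b, at 1.39, and *Slc17a7* lies at 3.98 there.

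Set against the mean of the other 4 arrays, association L6b had 2 of the 8 members at least 2-fold lower, *Kcnc2* and *Kcnv1*, and 0 higher. Over all genes past the filter, 6.55% were lower and 2.44% were higher by this rule. The median difference of the members was -0.32 log2, against -0.06 for all genes.

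Within association neurons, L6b and L2/3 differed most. *Kcnc2* (-1.84 log2), *Kcnb2* (-1.67), *Kcns2* (-1.25), and *Kcnv1* (-1.25) were at least 2-fold lower in L6b than in L2/3, and 0 members were higher, where 10.6% of all genes were lower and 2.83% higher. These 4 are the members with the largest range. In association neurons each of them was lowest in L6b, next in L5, and highest in L2/3, under each of the 4 scalings tried. *Kcnf1*, with a range of only 0.28 log2, kept the same order under each scaling, so the order does not set these 4 apart. The share of all genes with this order was not computed. The median of the members was -0.77 log2, against -0.09 for all genes. Between L6b and L5 of association neurons only *Kcnc2* was past 2-fold, lower in L6b by 1.61 log2 (3.05-fold), where 7.16% of genes were lower and 3.5% higher. *Kcnv1* and *Kcns2* had differences of -0.39 and -0.38, and *Kcnb2* had one of -0.15.

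Between L5 and L2/3, *Kcnb2* was 2.87-fold lower in L5 of association neurons, at 0.28 against 1.80 (-1.52 log2). It was the only member past 2-fold, where 7.36% of genes were lower and 3.48% higher. *Kcns2* (-0.87) and *Kcnv1* (-0.86) followed below 2-fold. In callosal neurons 0 of the 8 members were past 2-fold between L5 and L2/3, where 4.52% of genes were lower and 4.08% higher. The largest callosal difference was that of *Kcns2*, 0.60 higher in L5, and that of *Kcnv1* was -0.52. The comparisons of L6b and of L5 with L2/3 in association neurons share the association L2/3 array. *Kcnb2* and *Kcns2* thus enter both through the same high signal. The comparison of projections in L2/3 that follows uses this array too, so it gives no separate evidence on these genes.

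Between projections, 2 members were at least 2-fold higher in association than in callosal neurons of L2/3, where 5.07% of genes were higher and 3.48% lower. *Kcns2* was at 0.85 in association L2/3 and -0.59 in callosal L2/3, a 2.71-fold difference (1.44 log2), and *Kcnb2* was at 1.80 in association L2/3 and 0.47 in callosal L2/3, a 2.51-fold difference (1.33 log2). The signal of *Kcns2* in callosal L2/3 lay below the array median, so the size of its difference rests on a dim signal. In L5, 0 of the 8 members were past 2-fold between association and callosal neurons, where 4.97% of genes were lower and 3.49% higher. There *Kcnb2* was at 0.28 in association and 0.25 in callosal neurons, and *Kcns2* at -0.02 in association and 0.01 in callosal neurons. The difference between L5 and L2/3 in association neurons, minus that in callosal neurons, was -1.30 log2 for *Kcnb2* and -1.47 for *Kcns2*. By this measure, which was added after the values were seen, 9.97% of all genes were at least 2-fold lower and 6.21% higher, and the other 6 members ranged from -0.68 to -0.06.

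**Figure D4:**
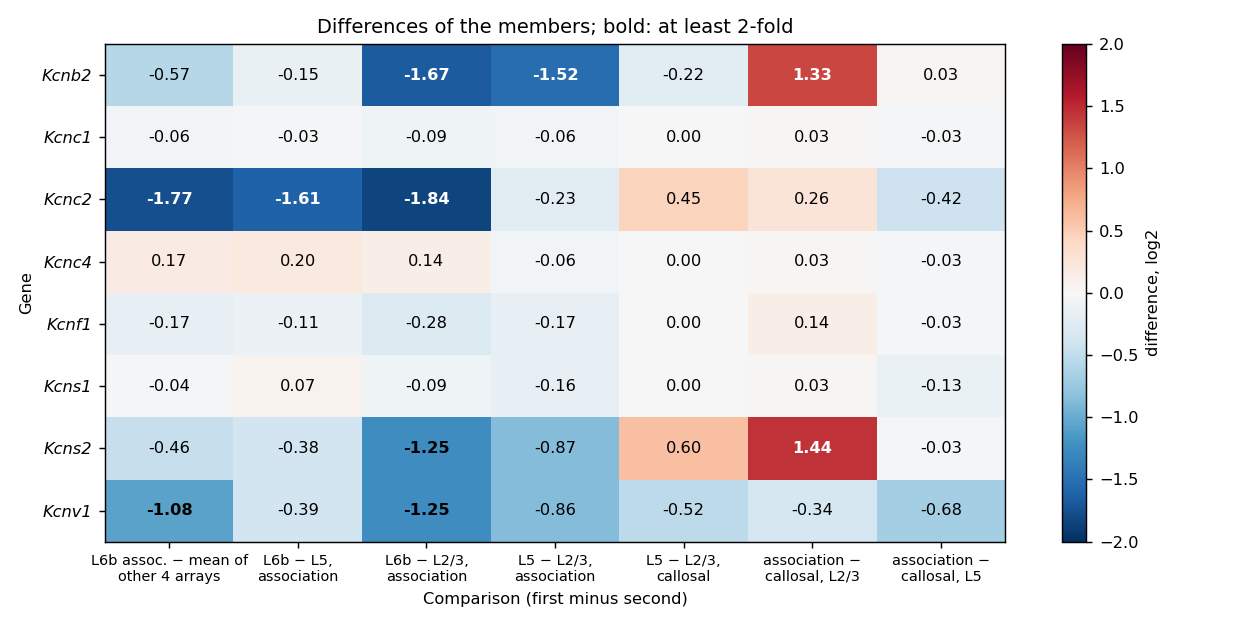
Difference in log2 signal (color and number) of the 8 genes (rows) in 7 comparisons (columns, first group minus second), with differences of at least 2-fold in bold. The bold values lie in the 3 comparisons of association L6b, in association L5 against L2/3, and in L2/3 of association against callosal neurons, and none lies in the callosal L5 against L2/3 or the L5 projection comparison.

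Another 6 genes of silent subunits, *Kcns3*, *Kcng1*, *Kcng2*, *Kcng3*, *Kcng4*, and *Kcnv2*, were looked up in the same way. None of the 6 was past 2-fold in any of the 7 comparisons. Over all genes past the filter, 2.44% to 5.07% were higher and 3.48% to 10.6% were lower, depending on the comparison. With shares of this size, the lack of calls among 6 genes does not set them apart from other genes. *Kcns3*, which encodes the silent subunit Kv9.3, had the largest range of them, 0.62 log2, with 0.96 in L6b, 1.20 in L5, and 0.58 in L2/3 of association neurons, and 0.81 in L5 and 0.84 in L2/3 of callosal neurons. Association L2/3 was thus the lowest array of *Kcns3* and the highest of *Kcns2*. *Kcng3*, a Kv6 subunit gene, had signals below 0 on all 5 arrays, from -0.77 to -0.46, so it was not among the genes past the filter. Among proteins that bind Kv2 channels at contacts of the endoplasmic reticulum with the plasma membrane, *Vapa* ranged from 2.44 to 2.64 and *Vapb* was highest in association L6b, at 1.97, and lowest in association L5, at 1.33. *Amigo2*, a relative of *Amigo1*, ranged from 0.10 to 0.15.

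For the 3 members with the largest range, the genes with the closest profiles over the 5 arrays were searched among 11727 genes, each centered on its own mean. The measure is the root mean square difference in log2, and over 5 arrays many genes can come close. Nearest to *Kcnb2* was *Slc9a3r1*, the gene of a scaffold protein beneath the plasma membrane, at 0.06, followed by *Isg20l2* and *Zmynd11* at 0.08 each. *Slc9a3r1* was at 2.83 in association L2/3 and at 1.02 to 1.49 in the other arrays. Nearest to *Kcnv1* was *Usp33*, which encodes a deubiquitinating enzyme, at 0.05, and then *Macir* and *Socs2* at 0.09 each. Nearest to *Kcnc2* were *Lyrm9*, *Ctsb*, and *Nudt4*, at 0.12 each. *Ctsb*, the gene of the lysosomal protease cathepsin B, was at 2.15 in association L6b against 3.53 to 4.03 elsewhere.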

How the data were processed

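The authors hybridized amplified cDNA to Affymetrix mouse gene arrays and deposited log2 signals for 35556 probe sets on 5 arrays. Affymetrix Expression Console is credited in the submitters' processing notes, and the sources used here give neither its version nor how probes were summarised. The methods also name global normalization and centering. The deposited values are not centered per gene, and the log2 scale was taken from their range of 1.11 to 14.2. No genome build is named, so no coordinates are given.

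An annotation gave 1 symbol for 21789 probe sets. The 1621 with several symbols named no gene, and 12146 are unnamed here. Array medians (5.71 to 5.80) were subtracted, the brightest probe set represented a gene (each member had 1), and genes at or above the median in at least 1 array were kept. Identical deposited values become small differences through this subtraction. At least 4 of the 5 arrays shared a value in 3 of 8 members and in 11.7% of genes.

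Differences were computed in Python 3.11.15 with pandas 2.3.3, and the steps were tested on simulated data. The simulated noise was smaller than the spread between the real arrays, so this checks the arithmetic and not the reliability of the 2-fold rule here. Alternatives were values as deposited, subtraction of the 75th percentile, quantile normalization, the mean of probe sets, other filters, and leaving out arrays. The text names all members, the fixed lists, and the 3 closest profiles of the 3 most variable members, without predicted genes, receptor genes of olfaction, and small RNAs. The members and lists were chosen with earlier results of these data known.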

Additional observations from a re-analysis of the deposited data

Results flagged for a closer look

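A pair of members moved in opposite directions in the compared groups under all 4 scalings, and with 1 array per group neither difference was tested. *Kcns2* had a difference between L5 and L2/3 of -0.87 log2 in association neurons and of 0.60 in callosal neurons, with signals between -0.59 and 0.85. *Kcnc2* had a difference between L5 and L2/3 of -0.23 in association neurons and of 0.45 in callosal neurons. From the same 4 signals, the association minus callosal difference of *Kcnc2* was 0.26 in L2/3 and -0.42 in L5. Each of these values is below 2-fold.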

How the results depend on the processing

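Of 201 values that summarise the members under an alternative, 196 kept their value within the limits set (1.5-fold). Part of the 201 could not change, so this count overstates how far stability was checked. The count of members at least 2-fold lower in association L6b than the mean of the other arrays was 2, and it was 1 with the 75th percentile subtracted, under quantile normalization, and when the callosal L2/3 array was left out, since *Kcnv1* then stayed under 2-fold. With genes kept only if they reached the 75th percentile of an array, 4 members were left. The median difference between L6b and L2/3 of association neurons was then -1.46 in place of -0.77, and the count of members higher in association than in callosal L2/3 was 1 in place of 2, because *Kcns2* was too dim to pass. The mean of all probe sets could change no member, as each has 1 probe set. Leaving out the filter could not change the summaries either, as all 8 members already passed it. None of the 376 values of single members changed sign from a called value. Many of these were fixed in advance, since neither the filters nor the mean of probe sets can change the difference of a single member. Only the scalings and the changes in the arrays compared could move them. With the medians subtracted, the ranges of *Kcnc1*, *Kcns1*, *Kcnc4*, and *Kcnf1* were 0.28 or less. The highest array of *Kcnc1* and *Kcns1* changed with the scaling, and as deposited *Kcnc1* was tied in all 5 arrays. No paired analysis was possible because each group is 1 array. The number of arrays limits the precision of every value.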
